A study of Danio rerio with 2 samples.

Results

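The 7 receptor tyrosine kinases described here were erbb2 (ENSDARG00000026294), erbb3b (ENSDARG00000036993), egfra (ENSDARG00000013847), kita (ENSDARG00000043317), csf1ra (ENSDARG00000102986), ltk (ENSDARG00000042861) and pdgfra (ENSDARG00000070494). They were taken by identifier from the 18723 gene rows of a single-cell RNA sequencing table, as the receptors whose orthologues act in neural crest and its derivatives, and all 7 had a row. The question asked of each was which cell classes carried it, and how its level compared between untreated embryos and embryos given ErbBi, a name taken to mean an agent that blocks ErbB receptors, the family to which 3 of the 7 genes belong.

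Receptor tyrosine kinases are cell-surface proteins that pair up when a ligand binds and phosphorylate each other, which feeds the RAS-ERK and PI3K pathways. ErbB3 binds neuregulins but has little kinase activity of its own and signals through a partner such as ErbB2, a pair that neural crest cells and Schwann cell precursors use in migrating along nerves. In zebrafish pigment lineages kita acts in melanoblast migration and survival, csf1ra in xanthoblasts and ltk in iridophore specification, while Pdgfra marks the crest cells that form skeletal and connective tissue of the head.

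The cells came from wild-type zebrafish embryos of the AB strain at 24 hours post fertilisation and were sorted for a mitfa reporter carrying GFP and a crestin reporter carrying mCherry, so the classes seen are those that 2 transgenes and a sort gate let through. Untreated embryos gave 1 library of 999 cells and 7242348 unique molecular identifiers (UMIs, counts of distinct captured transcripts), with a median of 7099 per cell. ErbBi-treated embryos gave 1 library of 348 cells and 1113172 UMIs, with a median of 2732.5 per cell. The compound behind ErbBi, its dose and its duration are not given in the sources used here.

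With 1 library per treatment, the effect of the treatment and the effect of the library cannot be told apart, and no test between treatments was made. The number at the end of a cell's name was matched to a library through the sample titles alone, and the opposite reading would invert all comparisons of the libraries. The filtered tables of both libraries had 6 barcodes in common, and leaving those cells out changed no call on the receptors. Before the authors' filter the libraries had 75 barcodes in common. Transfer of transcripts between the libraries was not tested. Levels are normalised counts in CPM, the UMIs of a gene scaled to a common library total, with exact Poisson 95% intervals, shares of cells have Clopper-Pearson intervals and ratios have conditional binomial intervals, all of which cover counting error only. Transcript length does not enter 3′ UMI counts. Apart from a ranking by untreated UMIs, the counts of different receptors were not compared as levels.

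The receptors were sparse. In the untreated library, erbb2 had 15 UMIs in 15 cells, erbb3b 47 UMIs in 44 cells and egfra 11 UMIs in 9 cells. Kita had 171 UMIs in 150 cells, csf1ra 22 UMIs in 22 cells, ltk 14 UMIs in 14 cells and pdgfra 116 UMIs in 80 cells. No cell of that library held more than 4 UMIs of any of the 7, and 711 of its 999 cells held none. In the ErbBi library, erbb2 had 5 UMIs in 4 cells, erbb3b 7 in 7, egfra 5 in 5, kita 38 in 38, csf1ra 7 in 7, ltk 4 in 4 and pdgfra 90 in 68. Among 51 rows of receptor tyrosine kinases, kita ranked at position 1 by untreated UMIs, pdgfra at 3 and erbb3b at 8, whereas csf1ra, erbb2, ltk and egfra stood at 18, 26, 28 and 31.

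Cells were grouped in 2 ways that did not use the receptors. The first was a clustering on variable genes from which all 7 were left out, which gave 9 clusters. Cluster 2 was mesenchyme-like, with twist1a, DLX2 (ENSDARG00000079964) and PRRX1 (ENSDARG00000033971) leading, and held 81 untreated and 128 ErbBi cells. Cluster 4 was xanthoblast-like (163 and 24 cells, led by slc22a7a and gch2), and cluster 5 melanoblast-like (150 and 3 cells, led by both TYRP1 rows, dct and pmela). The other clusters were left unnamed. Cluster 1 (215 and 8 cells) was led by TBX2 (ENSDARG00000018025), mlpha and tfap2e and also had a high dct level, of 7701 CPM in its untreated cells. Cluster 3 (142 and 53 cells) was led by ALX4 (ENSDARG00000088332), PRDM12, foxd3, wnt11 and hoxb8a. With finer clustering (resolution 2) or 30 principal components, ALX4 and foxd3 led separate clusters. Cluster 6 (104 and 12 cells) was led by HBE1 (ENSDARG00000087390), tfap2b and bnc2. Cluster 7 (66 and 36 cells) was led by MDK (ENSDARG00000020708), sox3, NOVA1, CLDN5 (ENSDARG00000043716) and elavl3, and cluster 8 (70 and 30 cells) by EGFP, hoxd9a and ved. Cluster 9 (8 and 54 cells), led by krt4, apoeb and pfn1, was mostly of the ErbBi library. Its cells differed by library. A list of epidermis markers was at 16959.5 CPM in the untreated and 938 CPM in the ErbBi cells. A list of melanoblast markers was at 8909 CPM in the untreated and 31323 CPM in the ErbBi cells. Orders of untreated levels below are over clusters 1 to 8, each of at least 30 untreated cells; cluster 9 had 1 UMI each of erbb2, erbb3b, kita, csf1ra and ltk (14.6 CPM) and 2 of pdgfra (29.1 CPM) in 8 untreated cells.

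The second grouping used shares of marker UMIs in each cell. Melanin-rich cells had over 1% of their UMIs in dct, pmela and the TYRP1 rows, gch2-rich cells had over 2% in gch2, a pteridine-synthesis gene of xanthoblasts, and mesenchyme-marker cells had at least 3 of twist1a, twist1b, dlx2a, prrx1a and prrx1b detected. These groups held 404, 124 and 72 untreated cells, with 399 other cells. In the ErbBi library they held 64, 19 and 59 cells, with 206 others. There were 74 cells within 25% of the melanin limit and 24 within 25% of the gch2 limit.

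**Figure D1:**
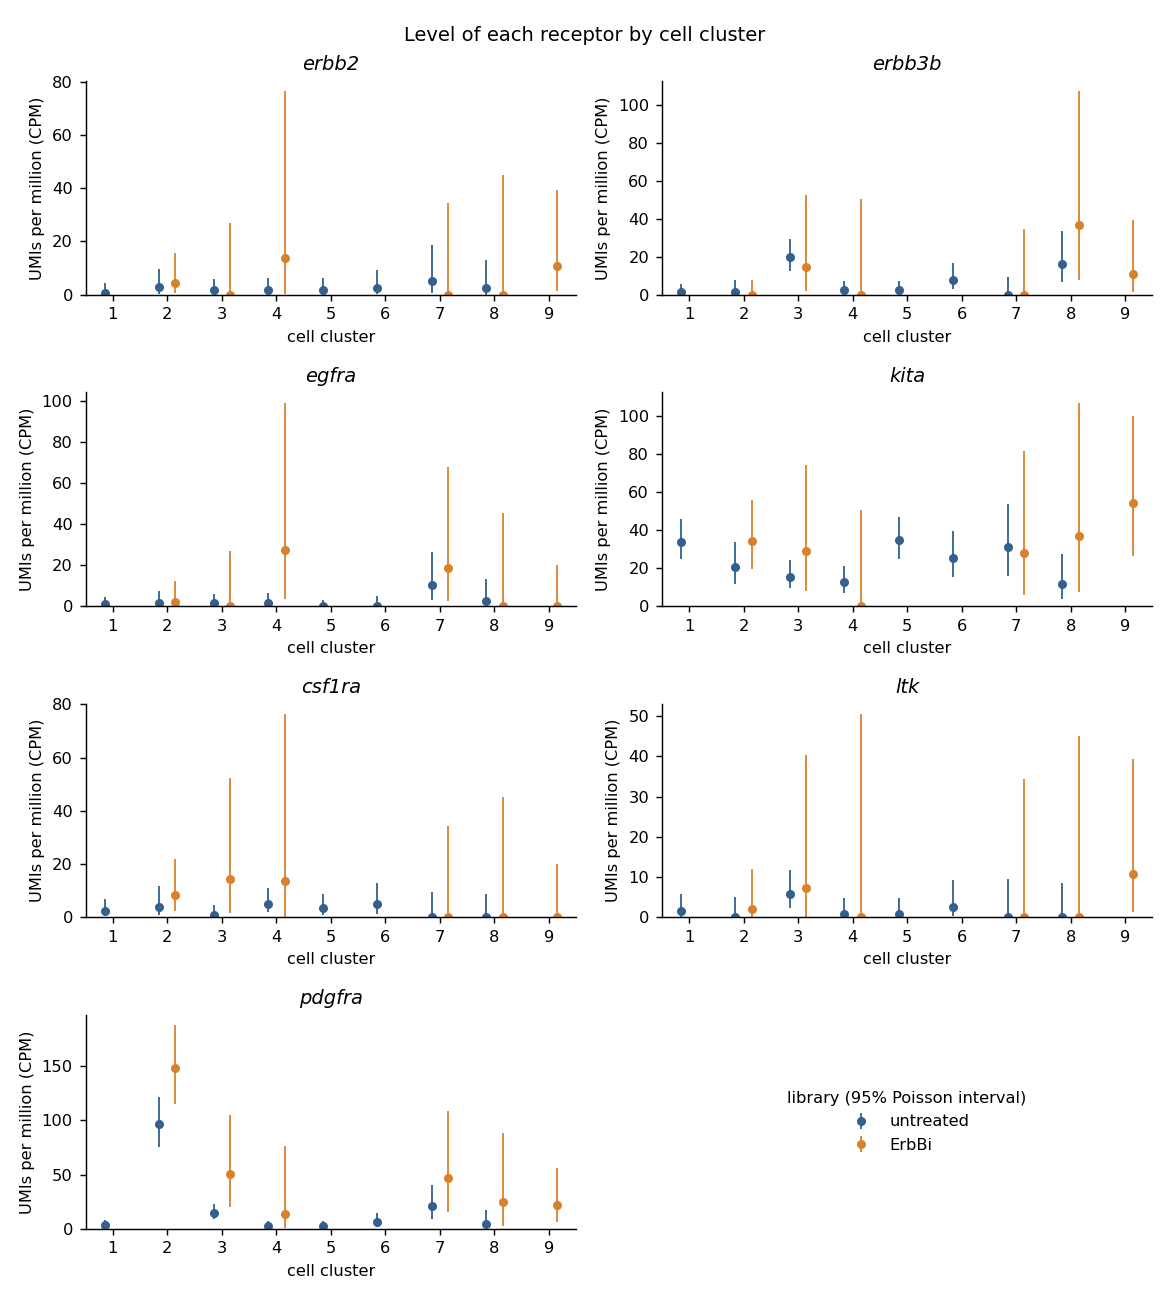
Level of each receptor (CPM, vertical axis, scaled per panel) in each cell cluster (horizontal axis) of the untreated (blue) and ErbBi (orange) libraries, with 95% Poisson intervals; clusters under 30 untreated or 20 ErbBi cells are left out for that library. Untreated erbb3b stands highest in cluster 3 at 19.7 CPM and in cluster 8 at 16.4 CPM, and pdgfra in cluster 2 at 96.5 CPM, while the kita intervals of most clusters overlap.

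Erbb3b, the neuregulin receptor, had its largest share of UMIs in the foxd3-led cluster. In the untreated library cluster 3 held 24 of its 47 UMIs, in 22 of 142 cells, which is 51.1% of erbb3b UMIs against 16.8% of all UMIs. The level there was 19.7 CPM (12.6 to 29.3), 5.15 times that of the other untreated cells (interval 2.79 to 9.55). Cluster 8 followed with 7 UMIs in 6 cells and 16.4 CPM (6.60 to 33.8), and its interval overlapped that of cluster 3. Cluster 6 had 6 UMIs and 7.65 CPM (2.81 to 16.7). Each of clusters 1, 2, 4 and 5 had between 1 and 3 UMIs, at 1.36 to 2.55 CPM, and the melanoblast-like, xanthoblast-like and mesenchyme-like clusters thus lay below cluster 3 with no overlap of intervals. In cluster 7 there was no erbb3b UMI in 66 cells, with an upper limit of 5.44% of cells. Thinned to 1900 UMIs per cell, 5 of 140 cells of cluster 3 had an erbb3b UMI (3.57%, 1.17 to 8.14), and 0 of 76 in the mesenchyme-like cluster, taken as the background class, with an upper limit of 4.74%. At that depth the shares cannot be told apart.

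The marker groups, which do not use the clusters, gave a similar distribution. Of the 47 untreated erbb3b UMIs, 36 were in cells that were neither melanin-rich, gch2-rich nor mesenchyme-marker cells, at 12.7 CPM (8.92 to 17.6), and the melanin-rich cells had 9, at 3.06 CPM (1.40 to 5.81). Gch2-rich cells had 0 UMIs of erbb3b in 124 cells, with an upper limit of 5.05 CPM. Untreated cells with an erbb3b UMI had foxd3, an early crest transcription factor, at 310 CPM, against 140 CPM in cells without one, a ratio of 2.21 (1.83 to 2.66). Their gch2 level was lower, at 0.336 of that in the other cells. The Schwann cell precursor list stood at 1.42, the neural crest list at 1.33, the cell cycle list at 1.29 and the neuron list at 1.27 times the other cells. The Schwann list rested on few of its rows, with 3 of 5 at 0 in cluster 3 and 4 of 5 at 0 in cluster 7, where its level was highest at 2060 CPM, and mbpa, a myelin gene, had no UMI in the erbb3b cells. In the 7 ErbBi cells with erbb3b, foxd3 had 1 UMI and a ratio of 0.260 (0.00655 to 1.47), and the Schwann list 3 UMIs and a ratio of 0.366 (0.0750 to 1.08).

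Erbb2, the common partner of the family, showed no class of its own. Its 15 untreated UMIs lay in 15 different cells and all 9 clusters, with 1 or 2 in each. In clusters 1 to 8 its level ran from 0.791 CPM in cluster 1 (0.0200 to 4.41) to 5.16 CPM in cluster 7 (0.624 to 18.6), and all of these intervals overlapped. Egfra, the zebrafish EGF receptor, had 4 of its 11 untreated UMIs in cluster 7, in 3 of 66 cells, at 10.3 CPM (2.81 to 26.4). This was 10.1 times the other untreated cells (2.17 to 39.7). The value rests on 3 cells of a mixed cluster, which had neural leading genes and also held 231 of 286 untreated UMIs of the muscle list and 54 of 94 of the endothelium list. Clusters 5 and 6 had no egfra UMI. No cell with an erbb3b UMI had a UMI of erbb2 or egfra in either library. At the shares measured, 0.661 untreated cells with both erbb2 and erbb3b would occur by independent draws. Finding none therefore cannot show that these genes are carried by different cells.

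Kita, the receptor for Kit ligand in melanoblasts, had UMIs in every cluster of the untreated library. The 2 clusters with the highest dct had the highest kita levels. The melanoblast-like cluster 5 had 41 UMIs in 35 of 150 cells, at 34.8 CPM (24.9 to 47.1), and cluster 1 had 43 UMIs in 36 of 215 cells, at 34.0 CPM (24.6 to 45.8). They were indistinguishable from each other and stood at 1.62 (1.11 to 2.32) and 1.59 (1.1 to 2.26) times the rest of the library. Cluster 7 followed at 30.9 CPM (16.0 to 54.0), cluster 6 at 25.5 (15.6 to 39.4), cluster 2 at 20.4 (11.4 to 33.6), cluster 3 at 15.6 (9.38 to 24.3), cluster 4 at 12.8 (7.14 to 21.0) and cluster 8 at 11.7 (3.81 to 27.4). Each neighbouring pair in this order had overlapping intervals, and only clusters 3 and 4 lay below clusters 5 and 1 without overlap. The xanthoblast-like cluster 4 was at 0.496 of the other cells (0.271 to 0.843). Thinned, 9 of 146 melanoblast-like cells (6.16%) and 3 of 76 mesenchyme-like cells (3.95%) had a kita UMI, with overlapping intervals.

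By marker share, melanin-rich cells held 96 of 171 untreated kita UMIs, or 56.1% (48.4 to 63.7), against 40.6% of all UMIs. Their level was 32.7 CPM (26.5 to 39.9), compared with 24.2 (14.3 to 38.2) in mesenchyme-marker cells, 16.6 (12.2 to 22.1) in other cells and 13.7 (6.56 to 25.2) in gch2-rich cells. With the melanin limit at 2% of UMIs the melanin-rich share of kita was 45.0%. Dct, which helps to define the groups, was at 9819 CPM in melanin-rich cells and 987 to 1265 CPM in the other 3 groups, and the part of free RNA in the kita UMIs outside melanin-rich cells was not tested. Untreated cells with a kita UMI had dct at 6006 CPM against 4377 CPM in the others, and gch2 at 0.603 of the others.

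**Figure D2:**
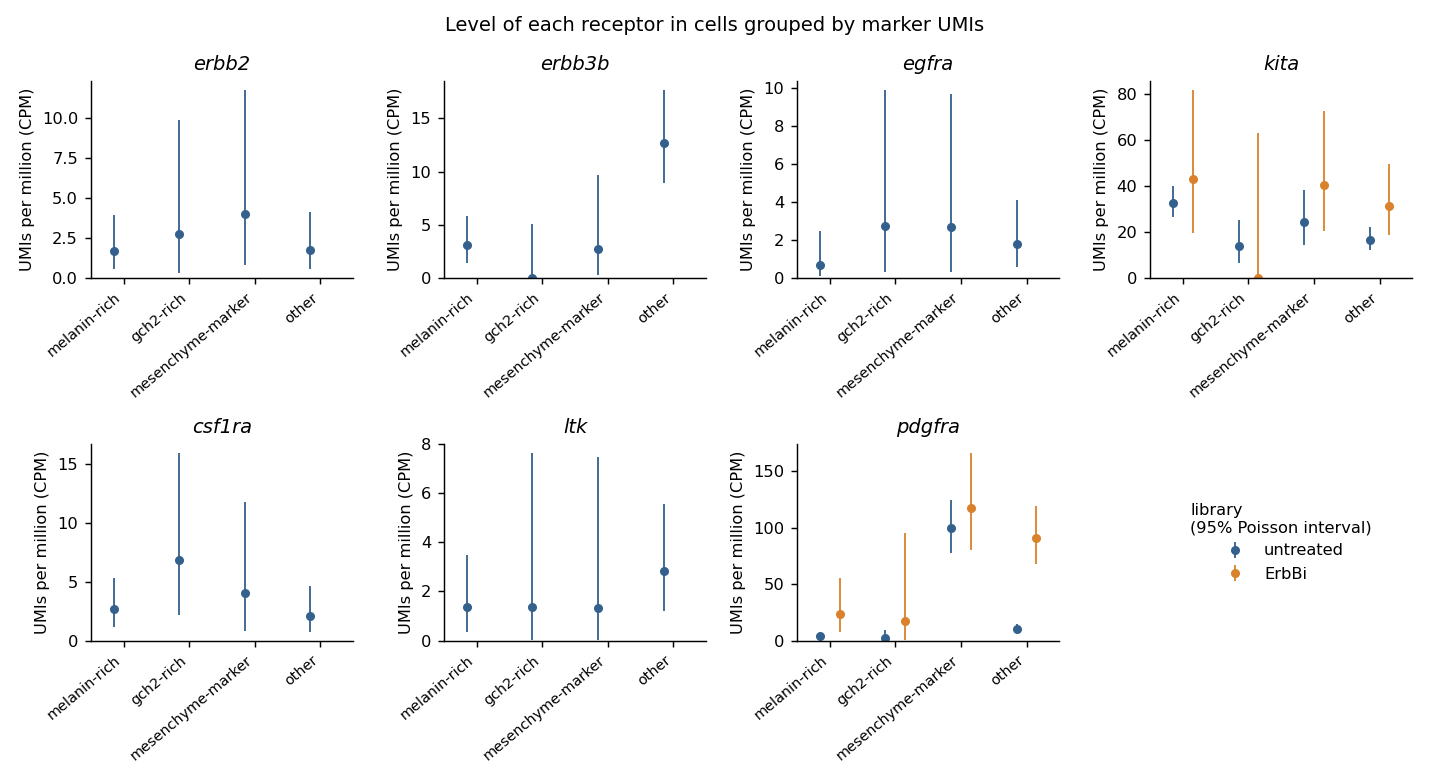
Level of each receptor (CPM, vertical axis, scaled per panel) in melanin-rich, gch2-rich, mesenchyme-marker and other cells, with 95% Poisson intervals; the ErbBi library (orange) is drawn beside the untreated library (blue) for kita and pdgfra, which had the most UMIs. Untreated kita stands highest in melanin-rich cells at 32.7 CPM, erbb3b in the other cells at 12.7 CPM and pdgfra in mesenchyme-marker cells at 99.4 CPM.

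Csf1ra, the receptor for Csf1 and Il34 and a gene of xanthoblasts and macrophages, was spread thinly. In the untreated library the xanthoblast-like cluster 4 had 6 of the 22 UMIs, at 5.10 CPM (1.87 to 11.1), and cluster 6 had 4, also at 5.10 CPM (1.39 to 13.1). Clusters 1, 2, 3 and 5 ran from 0.820 to 4.08 CPM, and clusters 7 and 8 had none in 66 and 70 cells. The intervals of all 8 clusters overlapped. Gch2-rich cells had 5 UMIs at 6.84 CPM (2.22 to 16.0), above the point values of 2.12 to 4.03 CPM in the other marker groups but with overlapping intervals. Of the 22 untreated cells with csf1ra, 8 were melanin-rich (1.98% of that group) and 5 gch2-rich (4.03% of that group). The melanin-rich share of csf1ra UMIs, 36.4%, was near that group's 40.6% of all UMIs.

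Most csf1ra cells had no macrophage transcript detected. Of the 22 untreated csf1ra cells, 18 had no UMI of the macrophage list, which has 13 rows in the table. A single csf1ra cell held 30 of the 35 macrophage-list UMIs in these cells. The list was sparse, with 189 UMIs in the whole untreated library, and cells without csf1ra were not counted for comparison. Spi1b, a transcription factor of myeloid cells, was found in 1 untreated cell, and that cell had a csf1ra UMI. In the ErbBi library spi1b was found in 8 cells, none of which had a csf1ra UMI, and 6 of the 7 csf1ra cells there had no macrophage-list UMI.

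Ltk, the receptor of the iridophore lineage, had its highest level among clusters 1 to 8 in cluster 3, led by ALX4 (ENSDARG00000088332) and foxd3. There were 7 of its 14 untreated UMIs there, in 7 of 142 cells, at 5.74 CPM (2.31 to 11.8) and 4.94 times the other cells (1.48 to 16.5). No other cluster of at least 30 cells had more than 2 ltk UMIs, and clusters 2, 7 and 8 had none. The CPM intervals of clusters 1 to 8 all overlapped, with upper limits of 9.51 in cluster 7 and 8.65 in cluster 8. The matching cluster held 21.4% of ltk UMIs with finer clustering (resolution 2) and 28.6% with 30 principal components, rather than 50%. In both settings foxd3 was a leading gene of the matching cluster. ALX4 (ENSDARG00000088332) led another cluster, together with gpnmb of the iridoblast list. That cluster held 46 untreated and 8 ErbBi cells at resolution 2, and 11 and 8 with 30 principal components. Its share of ltk UMIs was not tested. Untreated ltk cells had the iridoblast list at 1282 CPM against 905 CPM in the others, a ratio of 1.42 (1.22 to 1.64), and the cell cycle list at 1.67 times the others. They had pnp4a, a purine-synthesis gene of iridophores, at 0.813 of the others, and tfec, a transcription factor of that lineage, at 2 UMIs. One ltk cell held 402 of the 420 epidermis-list UMIs found in these cells.

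Pdgfra, a receptor for PDGF ligands, was concentrated in the mesenchyme-like cluster. It was among the 10 leading genes of that cluster although it had been left out of the clustering. In the untreated library cluster 2 held 71 of 116 UMIs, in 47 of 81 cells, which is 61.2% of pdgfra UMIs against 10.2% of all UMIs. The level was 96.5 CPM (75.4 to 122), or 14.0 times the other untreated cells (9.47 to 20.7). Among clusters 1 to 8, cluster 7 came next at 20.6 CPM (8.90 to 40.6) and cluster 3 at 14.8 (8.75 to 23.3). Neither interval reached that of cluster 2. Clusters 1, 4, 5, 6 and 8 were at 2.54 to 6.38 CPM. In the melanoblast-like cluster 5, taken as the background class for this gene, 3 of 150 cells had a UMI. The median depth there was 8414 UMIs per cell, against 9613 in the untreated cells of cluster 2. After every cell was thinned to 1900 UMIs, 1 of 146 cells had one in cluster 5 and 10 of 76 in cluster 2.

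Among the marker groups, mesenchyme-marker cells held 74 of the 116 UMIs, in 44 of 72 cells, at 99.4 CPM (78.04 to 124.8). Melanin-rich cells were at 3.74 CPM (1.87 to 6.70) and gch2-rich cells at 2.74 (0.331 to 9.89). Untreated cells with a pdgfra UMI had twist1a, a transcription factor of crest mesenchyme, at 883 CPM against 94.2 CPM in the others, a ratio of 9.38 (8.42 to 10.5). The mesenchyme list stood at 8.01 times the others and the cell cycle list at 2.04 times, whereas gch2 was at 0.322 and the melanoblast list at 0.438 of the others. The neuron list was also higher, at 2.25 times the others.

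Read against the call used throughout, a level at least 2-fold apart with an interval that excludes 1, the receptors fell out by cluster as follows; these are descriptions of clusters defined on the same cells. Cluster 3 had erbb3b and ltk higher, where 8.77% of the 11628 genes with at least 10 untreated UMIs were called higher. Cluster 8 had erbb3b higher (3.15% of genes), cluster 7 had egfra higher (10.7%) and cluster 2 had pdgfra higher (9.61%). In the other direction, cluster 4 had kita and pdgfra lower (6.13% of genes), cluster 1 had erbb3b and pdgfra lower (10.8%), and clusters 5 and 6 had pdgfra lower (13.2% and 2.70%). Erbb2 and csf1ra were called in no cluster.

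Most cells with a receptor had only 1. In the untreated library 246 cells had UMIs of 1 of the 7 receptors, 38 of 2 and 4 of 3. In the ErbBi library the numbers were 99, 17 and 0. The commonest pair was kita with pdgfra, in 14 untreated cells where the shares alone give 12.0 and in 8 ErbBi cells where they give 7.43. Kita with erbb3b was found in 8 untreated cells (6.61 from the shares), kita with csf1ra in 7 (3.30) and erbb3b with csf1ra in 4 (0.969). Untreated cells with a UMI of erbb2 had a median of 7061 UMIs in all and those with egfra 7257, beside 7099 in the whole library. The medians were 8745 for erbb3b, 8961.5 for csf1ra, 9086 for kita, 9916.5 for pdgfra and 10300 for ltk. The part of depth in joint detection, or in the marker levels of cells with a receptor, was not tested. After every cell was thinned to 1900 UMIs, 3 untreated cells had 2 receptors. Kita and pdgfra lie next to each other in the zebrafish genome (GRCz12tu annotation), as do csf1ra and pdgfrb.

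Across the 8 clusters of at least 30 untreated cells, the genes with the pattern most like pdgfra were FIBIN (ENSDARG00000039949), DLX2 (ENSDARG00000079964), twist1a, RARG (ENSDARG00000034117) and NR2F1 (ENSDARG00000017168), with Pearson r of 0.998 down to 0.983 on log2(CPM + 10). For erbb3b they were arap3, NARF, il16, znf638 and nanos1 (r 0.964 to 0.920), and for kita ppp1cbl, PDZRN3, copa, cdr2l and fnbp1l (r 0.961 to 0.936). The points are clusters of 1 library and share its depth and the clustering. Ranked by Spearman's rho, none of the 5 genes for erbb3b or kita was kept, and 1 of the 5 for pdgfra.

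Between the libraries, pdgfra was the receptor that differed. Its level was 16.0 CPM (13.2 to 19.2) in the untreated library and 80.8 CPM (65.0 to 99.4) in the ErbBi library, a ratio of 5.05 (3.79 to 6.71). It alone of the 7 receptors was called, and among the 12248 genes with at least 10 UMIs, 15% were called in either direction, 12.3% higher and 2.71% lower. The median log2 ratio of all genes tested was 0.25, and scaling by the median of ratios, which shifts all log2 ratios by 0.19, left pdgfra at 4.41. After thinning to 1900 UMIs, 16 of 946 untreated cells had a pdgfra UMI, or 1.69% (0.970 to 2.73), while in the ErbBi library 35 of 280 had one, or 12.5% (8.86 to 17.0). Without thinning these shares were 8.01% and 19.5%.

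The mesenchyme-like cells moved in the same direction. Cluster 2 held 81 of 999 untreated cells and 128 of 348 ErbBi cells, and the mesenchyme list stood at 332 CPM in the untreated and 1431 CPM in the ErbBi library. With the same weights for clusters 2, 3, 4, 7 and 8 in both libraries, the pdgfra ratio was 1.87, below the 2-fold limit. The other clusters were left out of this value. Within cluster 2 the untreated level was 96.5 CPM and the ErbBi level 148 CPM (116 to 188), a ratio of 1.54 (1.09 to 2.17). This was less than 2-fold and was not called, as 7.01% of genes were in either direction. In the thinned counts of that cluster pdgfra was detected in 10 of 76 untreated cells (interval 6.49 to 22.9%) and in 24 of 113 from the ErbBi library (interval 14.1 to 29.9%), and the intervals overlapped. At resolution 2 the mesenchyme-like cells fell into a cluster of 77 untreated and 21 ErbBi cells and another of 6 and 105. Within cluster 3 the ratio was 3.44 (1.22 to 8.63), from 18 and 7 UMIs, and pdgfra was called there, as were 5.63% of genes; the mesenchyme list in cluster 3 was at 215 and 747 CPM. Within cluster 7 it was 2.27 (0.583 to 7.86).

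In the marker groups, mesenchyme-marker cells had pdgfra at 99.4 CPM in the untreated library, and at 118 CPM (80.5 to 166) in the ErbBi library, with overlapping intervals. The other cells of the ErbBi library had 90.8 CPM (67.8 to 119) against 10.3 CPM (6.87 to 14.7) in the untreated library. These ErbBi cells were shallow, with a median of 2454 UMIs, and the rule of 3 detected mesenchyme genes is harder to meet at low depth; their twist1a level was 761 CPM, against 128 CPM in the untreated other cells. The part of depth in this difference was not tested. Melanin-rich ErbBi cells had 5 pdgfra UMIs, at 23.8 CPM (7.73 to 55.6). Their untreated counterparts were at 3.74 CPM (1.87 to 6.70), without overlap of intervals. Gch2-rich cells had 1 ErbBi UMI, at 17.1 CPM (0.433 to 95.2), against 2.74 CPM untreated, with overlapping intervals. Twist1a in melanin-rich cells was at 410 CPM in the ErbBi and 41.9 CPM in the untreated library. The part of free RNA in these levels was not tested.

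**Figure D3:**
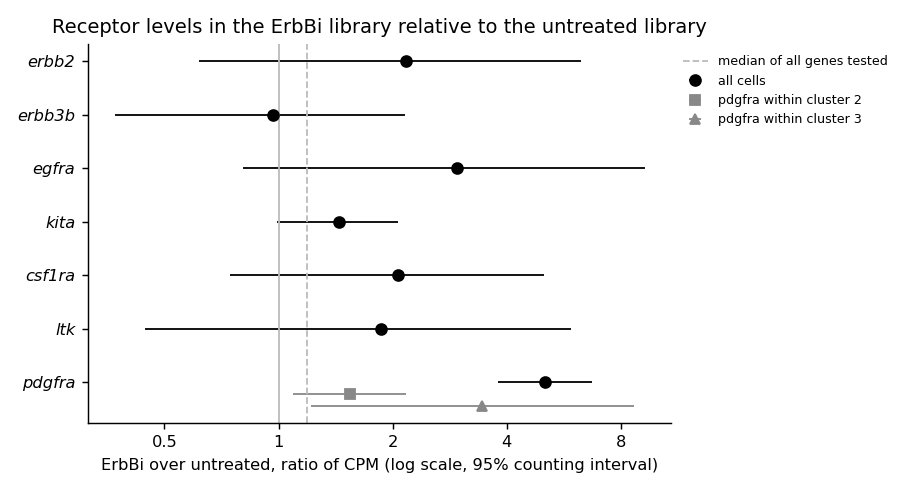
Ratio of CPM, ErbBi over untreated (horizontal log axis), for each receptor over all cells (black points) and for pdgfra within clusters 2 and 3 (grey), with 95% counting intervals; the solid line marks 1 and the dashed line the median of all genes tested. Pdgfra over all cells lies at 5.05 and within cluster 2 at 1.54, and the intervals of the other 6 receptors include 1.

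The 3 ErbB receptors gave no resolved difference between the libraries. Erbb3b was at 6.49 CPM (4.77 to 8.63) in the untreated and 6.29 CPM (2.53 to 13.0) in the ErbBi library, a ratio of 0.969 (0.370 to 2.16). Erbb2 was at 2.07 and 4.49 CPM, a ratio of 2.17 (0.617 to 6.28), and egfra at 1.52 and 4.49 CPM, a ratio of 2.96 (0.806 to 9.23). For none of the 3 do these counts exclude a 2-fold rise, and for erbb3b they do not exclude a 2-fold fall either. The 7 ErbBi erbb3b UMIs were in cluster 8 (3), cluster 3 (2) and cluster 9 (2). Within cluster 3 the ratio was 0.737 (0.0844 to 2.97), and within cluster 8 it was 2.24 (0.373 to 9.79).

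Kita was at 23.6 CPM (20.2 to 27.4) in the untreated and 34.1 CPM (24.2 to 46.9) in the ErbBi library, a ratio of 1.45 (0.989 to 2.06). Thinned, 42 of 946 untreated cells (4.44%) and 19 of 280 ErbBi cells (6.79%) had a kita UMI, with overlapping intervals. In the ErbBi library the cells of cluster 9, where dct was at 7840 CPM, had 10 kita UMIs in 54 cells, at 54.5 CPM (26.1 to 100), and cluster 2 had 16 UMIs at 34.4 CPM (19.7 to 55.9). The melanoblast-like cluster had 3 ErbBi cells, with no kita UMI, so kita in that cluster could not be compared. By marker share, 64 melanin-rich ErbBi cells had 9 kita UMIs, at 42.9 CPM (19.6 to 81.4). Untreated melanin-rich cells were at 32.7 CPM (26.5 to 39.9), with overlapping intervals. Within cluster 2 the ratio was 1.69 (0.782 to 3.67), within cluster 3 it was 1.86 (0.461 to 5.60) and within cluster 7 it was 0.907 (0.164 to 3.36). In the xanthoblast-like cluster 15 untreated UMIs faced 0 in 24 ErbBi cells, whose upper limit of 50.6 CPM lies above the untreated 12.8 CPM.

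Csf1ra was at 3.04 and 6.29 CPM, a ratio of 2.07 (0.747 to 5.02), and ltk at 1.93 and 3.59 CPM, a ratio of 1.86 (0.446 to 5.92). Neither was called. The 7 ErbBi csf1ra UMIs were in the mesenchyme-like cluster (4), cluster 3 (2) and the xanthoblast-like cluster (1), and the macrophage list was at 26.1 CPM in the untreated and 237 CPM in the ErbBi library. Of the list's 264 ErbBi UMIs, 118 were in 2 cells, neither with csf1ra. Of its 189 untreated UMIs, 38 were in 3 cells, 1 of them with csf1ra. The 4 ErbBi ltk UMIs were in cluster 9 (2) and clusters 2 and 3 (1 each).

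Of the remaining members of these families few were detected. The ERBB4 rows had 1 UMI each in the untreated library and none in the ErbBi library. Kitb had 2 and 1 UMIs, and pdgfrb, another PDGF receptor, had 9 and 1. Alkal2b, a ligand of Ltk, had 2 untreated UMIs and none with ErbBi.

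The ligands of these receptors were found within the sorted cells as well, some of them in another cluster than their receptor. Kitlga and kitlgb, which encode Kit ligand, were highest in clusters 8 and 3 of the untreated library. Kitlga had 12 of 82 UMIs in cluster 8, at 28.1 CPM and 2.74 times the other cells (1.35 to 5.09), and 33 in cluster 3, at 27.1 CPM and 3.32 times (2.07 to 5.28). Kitlgb had 8 of 28 UMIs in cluster 8, 6.39 times the other cells (2.44 to 15.2), and 12 in cluster 3, 3.70 times (1.60 to 8.34). The melanoblast-like cluster had 5 kitlga UMIs and no kitlgb. The PDGFA row ENSDARG00000098578, PDGFA being a Pdgfra ligand, had 28 of 33 UMIs in cluster 3, 27.7 times the other cells (10.5 to 91.7), and 1 in the mesenchyme-like cluster, where pdgfra was highest. The sparser PDGFA rows had most UMIs in cluster 7. ENSDARG00000109371 had 5 of 12 there, where it was called higher, and 2 in cluster 3. ENSDARG00000110069 had 3 of 6 in cluster 7 and 1 in cluster 3. Pdgfbb, which encodes PDGF-B, had 49 of 94 UMIs in the mesenchyme-like cluster, 9.63 times the other cells (6.29 to 14.8).

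Hbegfb, a ligand of the EGF receptor and ErbB4, had 23 of its 47 untreated UMIs in cluster 3, 4.73 times the other cells (2.55 to 8.75). Btc, another ErbB ligand, had 9 of 13 in cluster 7, of which 4 were in 1 cell. Hbegfa had 5 of 25 there, 4.42 times the other cells (1.3 to 12.1). Cluster 7 was also the cluster with the most egfra. Csf1b, a Csf1 receptor ligand, had 6 of 11 UMIs in cluster 7, of which 5 were in 1 cell. Nrg1, the neuregulin gene of the list that was detected, had 3 untreated UMIs and none with ErbBi. Epgn had 29 untreated UMIs, of which 15 were in 1 cell, and none with ErbBi.

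Between the libraries, 3 of the 12 ErbB and type III ligand rows with at least 10 UMIs were called, all higher with ErbBi, beside 12.3% of genes. Pdgfbb had 94 and 40 UMIs (ratio 2.77, 1.86 to 4.05), hbegfb 47 and 16 (2.21, 1.17 to 3.98) and csf1a 6 and 7 (7.59, 2.18 to 27.3). Within the mesenchyme-like cluster pdgfbb was at 66.6 and 71.0 CPM, a ratio of 1.07 (0.664 to 1.69). Kitlga had 82 and 6 UMIs, a ratio of 0.476 (0.170 to 1.08) that was not called, and hbegfa 25 and 1 (0.260, 0.00634 to 1.59). Epgn, with 29 and 0 UMIs, had an upper limit of 0.883, but a floor of 3 counts put its ratio at 0.673, and it was not called. At the depth of the ErbBi library, sparse ligand rows could hardly be called lower.

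**Figure D4:**
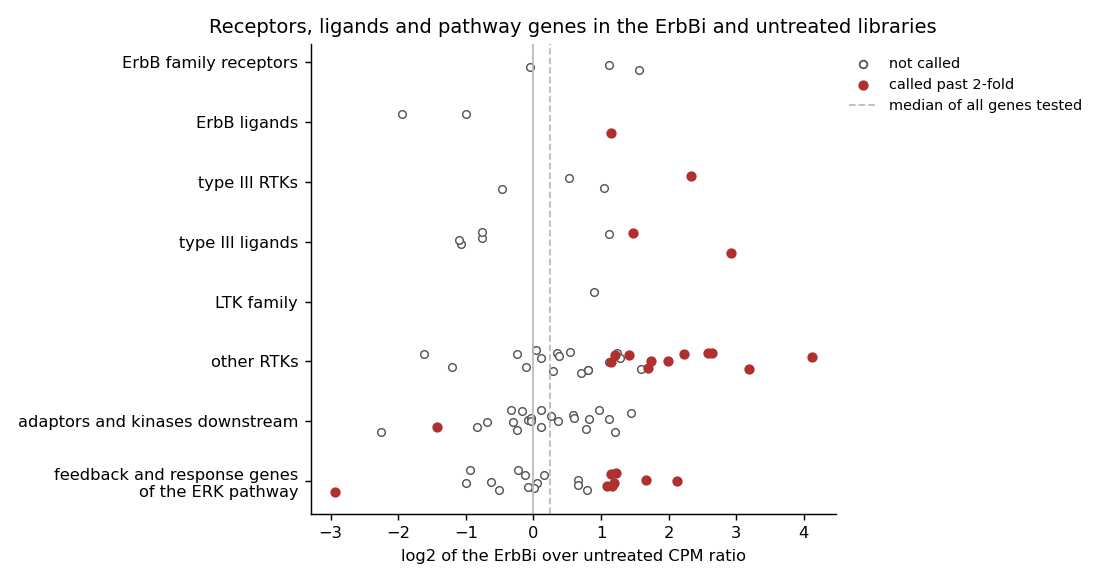
Log2 of the ErbBi over untreated CPM ratio (horizontal axis) for rows with at least 10 UMIs in all and at least 1 in each library, by list; filled points were called past 2-fold and the dashed line is the median of all genes tested, 0.25. Among other receptor tyrosine kinases 11 rows were called, all higher, and among adaptors and kinases downstream 1 row was called, lower.

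Of 29 other receptor tyrosine kinase rows with at least 10 UMIs, 11 were called higher and 0 lower, beside 12.3% and 2.71% of all genes, with a median log2 ratio of 1.12 beside 0.25. They were the FGF receptors FGFR1 (ENSDARG00000011190; 3.99), fgfr2 (3.33) and fgfr3 (2.31), the Wnt co-receptors ror1 (6.01) and ror2 (6.21), the ephrin receptors EPHA4 (ENSDARG00000054454; 3.25), epha7 (4.68) and ephb4b (2.21), the insulin-family receptors IGF1R (ENSDARG00000034434; 2.66) and INSR (ENSDARG00000071524; 9.11), and the neurotrophin receptor ntrk2a (17.3, from 3 and 8 UMIs). The INSR value of 9.11 rested on 5 and 7 UMIs. The more abundant INSR row (ENSDARG00000011948) had 131 and 17 UMIs, a ratio of 0.844 (0.477 to 1.404), and was not called. Nor was the other FGFR1 row (ENSDARG00000011027), with 51 and 10 UMIs and a ratio of 1.28 (0.577 to 2.54). The other IGF1R row (ENSDARG00000027423) had 13 and 6 UMIs, with an interval of 0.936 to 8.47, and was not called. Ret, a receptor of enteric crest, had 20 and 1 UMIs, with an interval of 0.00785 to 2.03, and was not called. EPHB2 (ENSDARG00000021539), with 16 and 0 UMIs, took a ratio of 1.22 from a floor of 3 counts for the 0. A lower call was thus hardly within reach of the sparse rows, and the list's median includes such floor values. Within the mesenchyme-like cluster 2 of 8 rows tested were called higher, FGFR1 (ENSDARG00000011190) at 5.94 (1.89 to 24.6) and ror2 at 3.17 (1.1 to 10.3), where 6.03% of genes were.

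Of 23 adaptors and kinases that act downstream of the receptors, 22 were not called, and ptpn11b, which encodes a phosphatase of the SHP2 type, was lower at 0.372 (0.0986 to 0.995), beside 2.71% of all genes lower. The median log2 ratio was 0.11. Of 22 feedback and response genes of the ERK pathway, 7 were called higher and 1 lower, beside 12.3% and 2.71% of all genes, with a median log2 ratio of 0.40 beside 0.25. Those higher were spry1 (4.34), dusp4 (3.16), dusp1 (2.33), spred2b (2.29), spred2a (2.24), etv5b (2.23) and lrig1 (2.13). Dusp5 was lower at 0.130 (50 and 1 UMIs), with 10 of the 50 in 1 cell and 25 in the mixed cluster 7. When doublets were left out of the clustering, dusp5 was a leading gene of a cluster of 5 untreated and 0 ErbBi cells, with etsrp and stab2. The other 14 were not called, such as spry4 at 0.705 (0.502 to 0.967), spred1 at 0.519 (0.270 to 0.912) and dusp6 at 1.11 (0.680 to 1.73). Within the mesenchyme-like cluster 2 of 16 rows were called higher, beside 6.03% of genes there, spred2a at 5.70 (2.04 to 19.6) and dusp1 at 2.96 (1.75 to 5.15).

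In the untreated library, 6 of the 22 ERK feedback genes were called higher in cluster 7, beside 10.7% of genes. In cluster 3, 4 were, beside 8.77%. Of the other clusters from 1 to 8, none had more than 1 called higher. In the other direction, 3 were called lower in cluster 1 (10.8% of genes) and 3 in cluster 5 (13.2% of genes). Clusters 2, 4, 6 and 8 had 1 or 2 lower, and clusters 3 and 7 had 0. Those of cluster 7 were spred2a, dusp5, dusp6, etv4, lrig1 and MYC (ENSDARG00000045695), and those of cluster 3 were spry4 at 109 CPM, 2.49 times the other cells (2.0 to 3.08), spred2a, etv5b and MYC (ENSDARG00000045695). The list's median log2 ratio was 0.38 in cluster 7 and 0.18 in cluster 3, and that of all genes 0.25 and 0.05. Cluster 7 had no erbb3b or ltk UMI but had egfra called higher. The upper limit of ltk there, 9.51 CPM, lay above the 5.74 CPM of cluster 3. Among clusters 1 to 8, erbb3b and ltk were highest in cluster 3. Of 26 other receptor tyrosine kinase rows, 10 were called higher in cluster 7 and 7 in cluster 3. Cluster 7 was mixed and also held most untreated UMIs of the muscle and endothelium lists, and some of its calls leaned on single cells. Of the untreated UMIs, 1 cell held 8 of 16 for kdrl, 5 of 10 for tek, 6 of 18 for EPHA4 (ENSDARG00000054454) and 10 of 50 for dusp5.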

How the data were processed

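Per the labels' protocols, polyadenylated RNA of sorted cells was made into 10x Genomics 3′ version 2 libraries, and per the submitters' processing notes FastQC 0.11.7, Cell Ranger 2.1.1 and the GRCz11 build were used. The authors deposited UMI counts per gene and cell in an unfiltered table of 1519 cells and a filtered table of 1347, which was used. Their filter left out 23 untreated and 149 ErbBi cells. Symbols came from a name table for 17967 of 18723 rows, and shared or human-style symbols are printed with the Ensembl identifier; UMIs of near-identical paralogues could have been divided between them.

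UMIs were summed per library or cell group. CPM used the summed UMIs, and ratios against 0 UMIs took 3 counts as the floor. This floor keeps rows with few untreated UMIs and 0 ErbBi UMIs from being called lower. Cells were scaled to 10000 UMIs, and 2000 variable genes without the 7 receptors, 20 principal components, 15 neighbours and Leiden resolution 1 were used (scanpy 1.11.5, leidenalg 0.10.2). Scrublet marked 7 untreated and 6 ErbBi cells as doublets, which stayed in. Thinning to 1900 UMIs left out 53 and 68 cells.

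The members, lists and marker limits were chosen with earlier results of these data known. The genes named are the 7 receptors, list genes past the call rule, ligands and paralogous receptors, and the 5 genes most alike per receptor with at least 30 untreated UMIs. The ratio code was tested on simulated data.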

Additional observations from a re-analysis of the deposited data

How the results depend on the processing

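Of 104 alternative values computed for the receptors and for the numbers of genes called, 93 stayed within the counting interval or limit of the main value, and 11 moved. For the sparse receptors this is a weak check, because the intervals are wide. The csf1ra ratio of 2.07 (0.747 to 5.02) was 3.55 with the same cluster weights and still lay within its interval. No called value changed direction; the erbb3b ratio of 0.969, which was not called, was 1.25 when CPM was averaged over cells and 1.04 with the same cluster weights. The pdgfra ratio of 5.05 was 1.87 with the same weights for clusters 2, 3, 4, 7 and 8 in both libraries and the other clusters left out. The share of kita UMIs in its leading cluster, 24.0%, was 49.1% at resolution 0.5, where the matching cluster was larger, and 36.3% with 30 principal components; its share in melanin-rich cells, 56.1%, was 45.0% with a limit of 2%. The erbb3b share in cluster 3, 51.1%, stayed within its interval but was 36.2% at resolution 2, 44.7% with genes centred within each library and 46.8% without doublets. The ltk share in cluster 3, 50%, was 21.4% at resolution 2 and, within its interval, 28.6% with 30 principal components. The pdgfra share in the mesenchyme-like cluster, 61.2%, was 71.6% with 30 principal components. Clusters of an alternative were matched to the main ones by their untreated cells, a choice made after seeing the data; matched over both libraries, the pdgfra share was 3.45% at resolution 2 and 11.2% with genes centred within each library, because those settings divide the mesenchyme-like cells by library. With Spearman's rho, 0 of 5 genes alike were shared for erbb3b, 0 for kita and 1 for pdgfra. Leaving out cells with shared barcodes was also added after seeing the data. No paired analysis was possible because untreated and ErbBi embryos gave 1 library each, and no replicate could be left out. The depth of the ErbBi library limits the 6 receptors other than pdgfra, whose intervals all include 1.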
